A study of Mus musculus with 6 samples.

Results

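The genes described here are 32 genes of the cell cycle, listed by gene name: 8 that act in S phase, 23 that act in mitosis or switch mitotic genes on, and Stmn1. The RNA came from 6 lungs of naive male mice, all 8 weeks old: 3 were wild-type and 3 were knockout for Nogo-A/B, 2 proteins made from the reticulon gene Rtn4. Each lung had its own Agilent array of 60-base probes, read in 1 colour (Cy3). Strain and the construction of the knockout are not given in the sources used here, so which cells lack Nogo was not assessed. A gene was represented by its brightest probe and counted as measured when 3 or more of the 6 arrays detected that probe above background. By this rule 31 of the 32 genes, and 20237 genes in all, were measured, and the 31 were well above background on 6 of 6 arrays with 0 saturated. The exception was Ttk, the kinase Mps1 of the spindle checkpoint, whose 1 probe reached that mark on 0 of 6 arrays.

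Cells copy their DNA in S phase and divide it in mitosis. At the start of S phase, E2F transcription factors, released from the retinoblastoma protein Rb, switch on genes for DNA replication and nucleotide supply. Genes of mitosis are held silent in resting cells by the DREAM complex and switched on later by the MuvB core with B-Myb and FoxM1, through a DNA element called the CHR that often lies beside CCAAT boxes bound by NF-Y. In an adult lung at rest most epithelial, endothelial and stromal cells have left the cycle, and the dividing cells include resident macrophages and lymphoid cells. Proteins such as Ki-67, encoded by Mki67, are therefore widely used to find dividing cells in tissue sections.

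The stretch before the transcription start shows these elements for 5 genes on which the results below turn. Each line gives 130 bases that end just before the start annotated in RefSeq on GRCm38.p6, 5′ to 3′ on the strand of the gene. Capitals mark letters of these elements on either strand of the stretch. The CHR was searched as TTTGAA. The NF-Y box was searched by the letters CCAAT that give it its name. The E2F element was searched as any of the runs TTTGGCGC, TTTCGCGC and GGCGGGAA. The first lines are 3 mitotic genes, then Nusap1, in which no letters matched in this stretch, and then Mcm6 of S phase.
Mki67: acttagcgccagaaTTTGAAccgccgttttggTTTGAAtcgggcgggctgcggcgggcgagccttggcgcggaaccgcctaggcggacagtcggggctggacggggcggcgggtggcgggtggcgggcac
Cdk1: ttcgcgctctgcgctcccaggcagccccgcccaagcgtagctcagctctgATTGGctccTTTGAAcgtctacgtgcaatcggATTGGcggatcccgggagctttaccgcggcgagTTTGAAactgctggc
Cdc20: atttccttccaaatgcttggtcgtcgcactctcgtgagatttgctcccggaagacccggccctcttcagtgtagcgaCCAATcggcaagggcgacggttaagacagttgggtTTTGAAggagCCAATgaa
Nusap1: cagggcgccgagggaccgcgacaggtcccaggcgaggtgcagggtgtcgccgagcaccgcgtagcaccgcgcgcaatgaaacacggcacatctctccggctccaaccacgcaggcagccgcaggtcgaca
Mcm6: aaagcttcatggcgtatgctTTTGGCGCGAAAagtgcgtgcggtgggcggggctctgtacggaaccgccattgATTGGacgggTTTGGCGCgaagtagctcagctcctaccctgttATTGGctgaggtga
The stretches lie at chr7:135716380-135716509 (minus strand), chr10:69352913-69353042 (minus), chr4:118437344-118437473 (minus), chr2:119618168-119618297 (plus) and chr1:128359706-128359835 (minus), in that order. In Mcm6 the first run of capitals holds 2 overlapping E2F matches, TTTGGCGC on the strand of the gene and TTTCGCGC on the other.

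RefSeq promoters of 300 bases, from 250 before to 50 after the start, were matched for 26 of the 32 genes, 18 mitotic and 8 of S phase. CHR letters and CCAAT letters lay together in 13 of the 18 mitotic promoters (72.2%), in 1 of the 8 S-phase promoters (Mcm2) and in 7.97% of the promoters of 27025 genes. CHR letters alone were found in 20.2% of all genes and in the same 13 mitotic and 1 S-phase promoters. CCAAT letters were found in 41.1% of all genes, in 15 of 18 mitotic and in 6 of 8 S-phase promoters. E2F letters lay in 3 of the 8 S-phase promoters (Mcm3, Mcm5 and Mcm6), in 1 mitotic promoter (Cdk1, whose match begins just before the stretch shown) and in 3.39% of all genes. These matches describe sequence, not binding. The CCAAT letters of Mki67 lay upstream of the stretch printed.

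Levels are log2 processed signals from which the 75th percentile of the array was subtracted. A level is set only against the same gene on other arrays, because probes differ in brightness. The arrays were scanned on 2 days, which both held both genotypes: day 1 had wild type 13 with knockout 1 and 11, and day 2 had wild type 11 and 12 with knockout 12. Day 2 was also 1 slide, so day and slide cannot be told apart there. On day 1 wild type 13 and knockout 1 shared a slide and knockout 11 was alone on another. What is particular to knockout 11 therefore cannot be told apart from its slide. The share of probes well above background ran from 68.9% to 78.0%. It was 71.8% to 78.0% on day 1 and 68.9% to 71.3% on day 2. Genotypes were therefore compared with scan day in the model, and precision is limited by having 3 arrays in each group.

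The targeted gene was checked first. The Rtn4 probe for transcript AK047982 (mm7 chromosome 11, 29649392 to 29649451) read -3.03, -2.89 and -2.27 in the wild type. It was detected above background in 3 of 3 wild-type lungs and 0 of 3 knockout lungs. The brightest Rtn4 probe (29693516 to 29693723) read 1.69, 1.62 and 2.36 in wild-type lungs and 1.1, -0.71 and -1.79 in knockout 1, 11 and 12. It stands for several transcript variants in the array files and does not check the deletion. Lung markers were bright on all 6 arrays, among them Sftpc of alveolar type 2 cells, at 7.83 to 8.78, and Scgb1a1 of club cells, at 7.67 to 8.57.

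**Figure D1:**
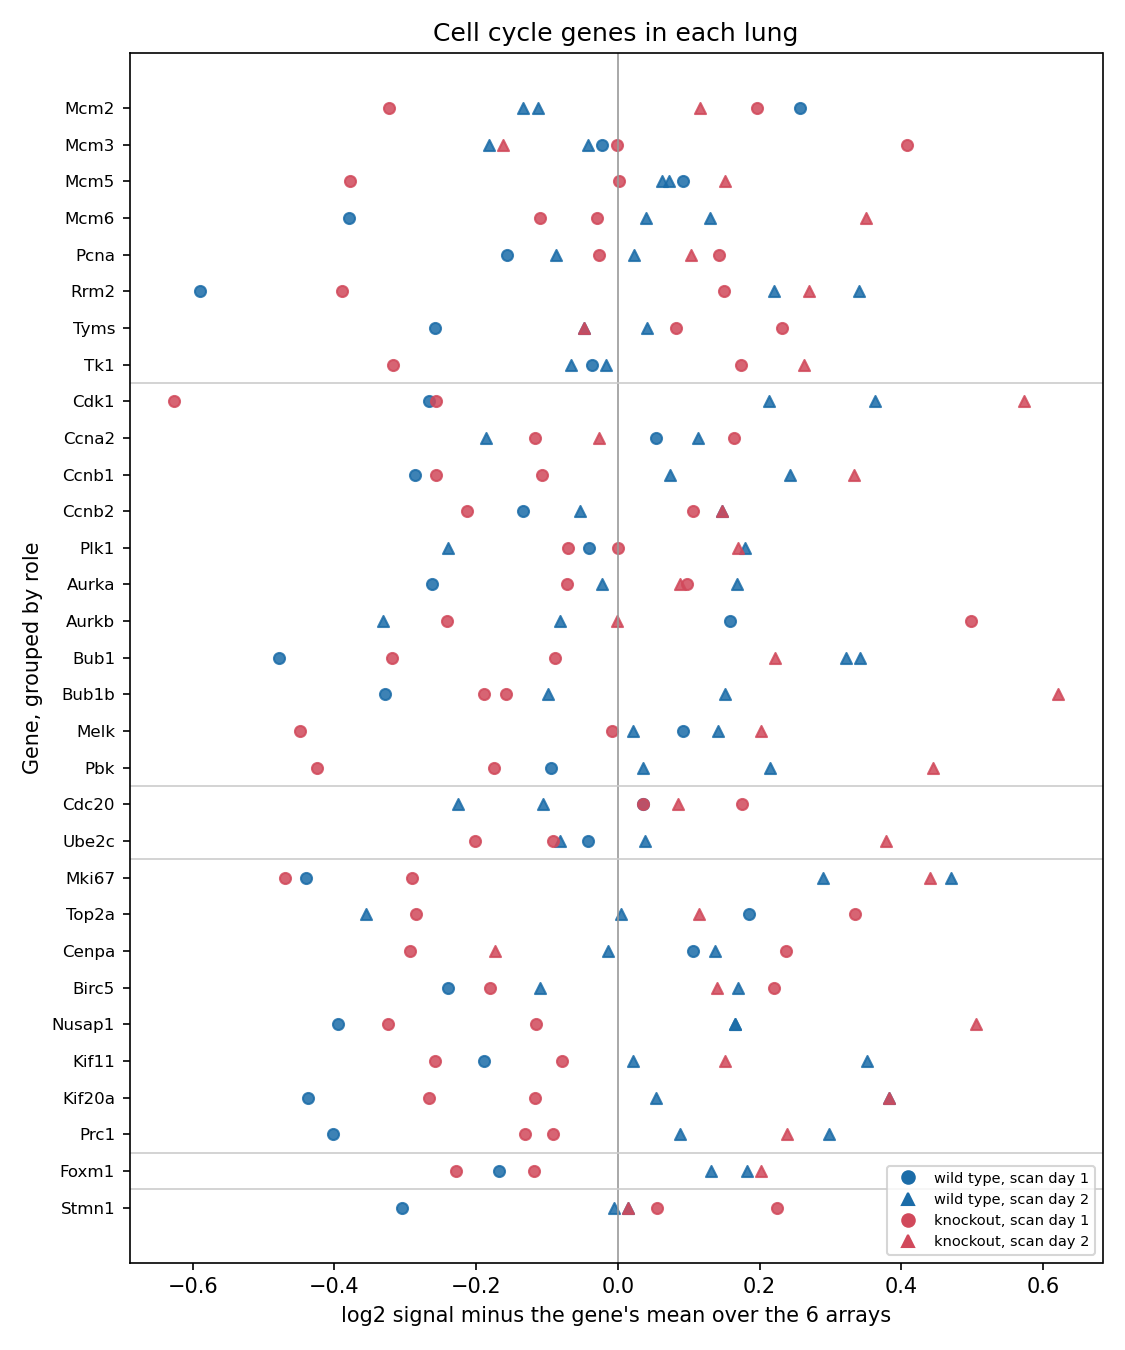
Each row is a measured cell cycle gene, grouped by role from S phase at the top to Stmn1 at the bottom, and each point is a lung. The x axis is the log2 signal minus the mean of the gene over 6 arrays; colours are genotypes, circles scan day 1 and triangles scan day 2. Colours mix in nearly every row, while triangles lie to the right of all circles in 13 rows, Mki67, Cdk1 and Nusap1 among them.

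Knockout and wild-type lungs were compared to see whether loss of Nogo-A/B moved genes of cell division. None of the 31 measured genes differed between genotypes in limma after adjustment over 20237 genes, and 0 of 31 reached an unadjusted p under 0.05 in either direction. Over all genes 0.0% passed the adjusted threshold, and at an unadjusted p under 0.05 1.31% were lower and 0.791% higher in the knockout. These were 265 and 160 genes, and 178 and 202 under median scaling. Among the 31 genes the alternatives brought at most 3 to an unadjusted p under 0.05, with normexp (Mcm6, Bub1b and Nusap1, each higher in the knockout). The differences were small, from -0.18 for Cenpa to 0.38 for Bub1b on the log2 scale, with standard errors of 0.13 to 0.25. All 31 intervals included 0, and the widest reach of the 95% intervals was -0.67 to 0.81. With scan day in the model, a 2-fold difference (1 on this scale) therefore lay outside the interval of each of the 31 genes. Other models could be less precise: the standard error of Cdk1 was 0.19 here, 0.35 without scan day and 0.37 with replicate numbers as a block.

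The differences were mostly positive without passing the test: 25 of the 31 genes were higher and 6 lower in the knockout, against 53.1% of all genes higher. The median was 0.10, with 0.16 for the 8 S-phase genes and 0.09 for the 22 measured mitotic genes, beside 0.01 for all genes tested. Without scan day in the model it was 0.03, with 20 of 31 higher. With the replicate numbers as a block in place of scan day it was -0.06, with 13 of 31 higher. Within day 1 the median was 0.07 and within day 2 it was 0.12, but gene by gene the days differed. The sign was positive on both days for 14 genes, negative on both for 1 (Cenpa) and opposite for 16. In whole lung, a change in the number of dividing cells and a change in RNA per dividing cell cannot be told apart.

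**Figure D2:**
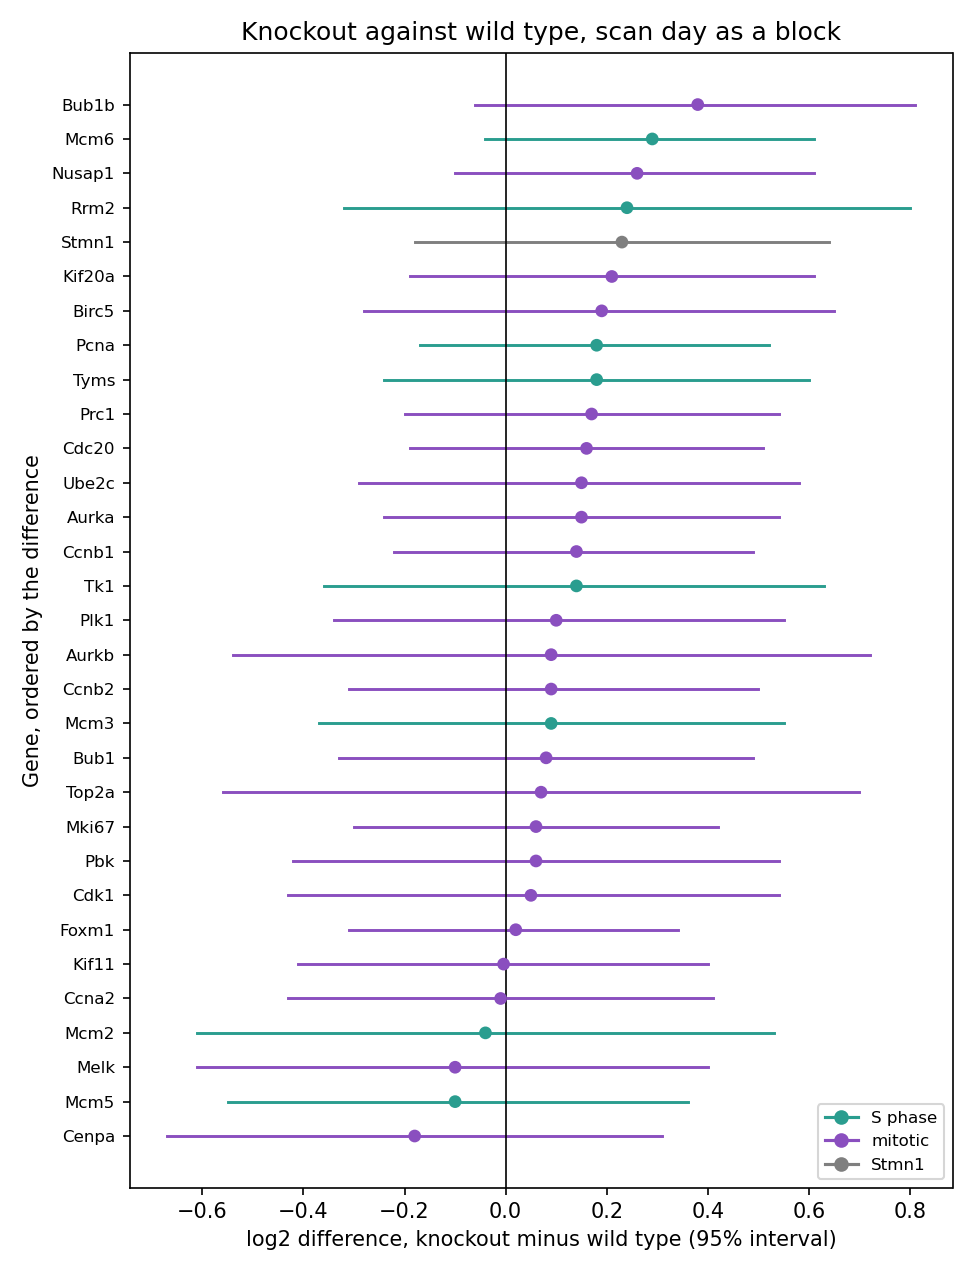
Points are log2 differences, knockout minus wild type, of the 31 measured genes with scan day in the model; lines are 95% intervals from limma, coloured by role. The points run from -0.18 to 0.38 and each of the 31 intervals crosses 0.

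Of the S-phase genes, Mcm6 had the smallest p. It encodes a subunit of the MCM helicase, which unwinds DNA at replication forks (probe at mm7 chromosome 1, 128211735 to 128211794). Mcm6 read 2.71, 2.62 and 2.20 in wild type 11, 12 and 13, and 2.47, 2.55 and 2.93 in knockout 1, 11 and 12. Knockout 12 was the highest lung and wild type 13 the lowest, and the groups overlapped. With scan day in the model the difference was 0.29 (SE 0.13), with an unadjusted p of 0.0738 that rose to 1.0 once adjusted (limma). It was 0.31 within day 1 and 0.26 within day 2.

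Mcm2, another subunit of the same helicase (chromosome 6, 88958718 to 88958777), did not follow Mcm6. It read -1.18, -1.16 and -0.79 in wild-type lungs and -0.85, -1.37 and -0.93 in the knockout. The mean was -1.05 in both groups (SD 0.22 and 0.28, n = 3 each), and the fitted difference was -0.04 (SE 0.22). Within day 1 it was -0.32 and within day 2 it was 0.24, so its sign rested on the day. The other helicase subunits gave 0.09 (SE 0.18) for Mcm3 and -0.10 (SE 0.18) for Mcm5. A second Mcm3 probe gave 0.17.

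Pcna, the sliding clamp that holds DNA polymerase on its template (chromosome 2, 131990537 to 131990674), varied little. It read 2.77, 2.66 and 2.59 in wild-type lungs and 2.72, 2.89 and 2.85 in the knockout. Means were 2.67 ± 0.09 and 2.82 ± 0.09 (SD, n = 3 each), and the groups overlapped through knockout 1. The difference was 0.18 (95% interval -0.17 to 0.52). Rrm2, the regulated subunit of ribonucleotide reductase (chromosome 12, 22550253 to 22550307), was more scattered, at -2.09, -1.97 and -2.90 in wild-type lungs and -2.16, -2.70 and -2.04 in the knockout. Wild type 13 and knockout 11, both of day 1, were its low lungs. The difference was 0.24 (SE 0.22), with 0.48 within day 1, where wild type 13 was the only wild-type lung, and -0.01 within day 2. Tyms and Tk1, which make and salvage thymidine nucleotides, gave 0.18 (SE 0.17) and 0.14 (SE 0.20). The probes of Tyms next in brightness gave 0.21 and -0.09.

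Among the mitotic kinases and their partners, Bub1b had the widest difference of the 31 genes. It encodes BubR1, which holds back anaphase until chromosomes are attached (chromosome 2, 118381943 to 118382002). Bub1b read -1.92, -1.67 and -2.15 in wild-type lungs and -1.98, -2.01 and -1.20 in the knockout. Knockout 12 stood above the other 5 lungs, and knockout 1 and 11 lay within the wild-type range. The difference was 0.38 (SE 0.17, limma unadjusted p = 0.0765, adjusted 1.0), with 0.16 within day 1 and 0.59 within day 2. Bub1, its partner kinase at the kinetochore, gave 0.08 (SE 0.16).

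Cdk1, the kinase that drives entry into mitosis (chromosome 10, 68946079 to 68948488, a span longer than the probe), varied more within a genotype than between them. It read -2.55, -2.40 and -3.03 in wild-type lungs and -3.02, -3.39 and -2.19 in the knockout. Knockout lungs were both the highest and the lowest of the 6. The difference was 0.05 (SE 0.19), with -0.18 within day 1 and 0.28 within day 2. Its partner Ccnb1, cyclin B1 (chromosome 13, 97885282 to 97885341), read -3.79, -3.62 and -4.15 in wild-type lungs and -3.97, -4.12 and -3.53 in the knockout. Here too knockout 12 was highest and wild type 13 and knockout 11 were lowest. The difference was 0.14 (SE 0.14), and the other probes of Ccnb1 gave 0.04 and 0.29.

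The remaining kinases and cyclins gave differences between -0.10 and 0.15: cyclins Ccnb2 (0.09) and Ccna2 (-0.01), the mitotic kinases Plk1 (0.10), Aurka (0.15) and Aurkb (0.09), and the kinases Melk (-0.10) and Pbk (0.06). None of these reached an unadjusted p under 0.05. The pair that ends mitosis by marking cyclin B for destruction lay close together. Cdc20, the activator of the anaphase-promoting complex (chromosome 4, 117809370 to 117809429), read -0.33, -0.21 and -0.07 in wild-type lungs and 0.07, -0.07 and -0.02 in the knockout. Before rounding the 3 knockout lungs were above the 3 wild-type lungs, although wild type 13 and knockout 11 print alike. The difference was 0.16 (SE 0.14, limma unadjusted p = 0.296). Ube2c, the ubiquitin-conjugating enzyme of that complex, gave 0.15 (SE 0.17).

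The 2 genes with knockout above wild type on every array were Cdc20 and Stmn1, of 31 measured, where 2.4% of all genes had this pattern. The reverse, knockout below wild type on every array, was found for 0 of 31 and for 1.6% of all genes. Stmn1 encodes stathmin, which destabilises microtubules and is also made by cells that do not divide (chromosome 4, 133852044 to 133852103). It read 4.57, 4.59 and 4.27 in wild-type lungs and 4.80, 4.63 and 4.59 in the knockout, with wild type 12 and knockout 12 alike to 2 decimals. Its difference was 0.23 (SE 0.16), or 0.45 within day 1 and 0.01 within day 2, and a second probe gave 0.09.

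Of the genes of chromosomes and the spindle, Mki67 (chromosome 7, 132094802 to 132094861) is the usual mark of dividing cells. It read 1.14, 1.32 and 0.41 in wild-type lungs and 0.56, 0.38 and 1.29 in the knockout. Lungs of both genotypes fell into a high and a low group that followed the scan day. The difference between genotypes was 0.06 (95% interval -0.30 to 0.42), and it was 0.06 within each day. The second Mki67 probe (132099223 to 132099282) gave 0.15.

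Top2a, topoisomerase II alpha, which untangles sister chromosomes (chromosome 11, 99104969 to 99105783), read -3.33, -2.97 and -2.79 in wild-type lungs and -2.64, -3.26 and -2.86 in the knockout. The groups overlapped over most of their range, and the difference was 0.07 (SE 0.25). Nusap1, a protein that bundles spindle microtubules near chromosomes (chromosome 2, 119390185 to 119390244), read -1.59, -1.59 and -2.15 in wild-type lungs and -1.87, -2.08 and -1.25 in the knockout. Knockout 12 was its highest lung and wild type 13 its lowest. The difference was 0.26 (SE 0.14, limma unadjusted p = 0.126).

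Kif20a and Prc1 work together in the central spindle when the cell splits. Kif20a, a kinesin, read -0.68, -0.35 and -1.17 in wild-type lungs and -0.85, -1.0 and -0.35 in the knockout. The wild-type mean was -0.73 ± 0.41 and the knockout mean -0.73 ± 0.34 (SD, n = 3 each), and with scan day in the model the difference was 0.21 (SE 0.16), or 0.08 by its second probe. Prc1, which crosslinks microtubules (chromosome 7, 76185003 to 76185055), read -0.48, -0.27 and -0.97 in wild-type lungs and -0.70, -0.66 and -0.33 in the knockout, with a difference of 0.17 (SE 0.15). Kif11, the kinesin that separates spindle poles, gave -0.0041 (SE 0.16). Birc5, or survivin, of the chromosomal passenger complex gave 0.19 (SE 0.18), and Cenpa, the histone variant of centromeres, gave -0.18 (SE 0.19). Foxm1, the transcription factor of the mitotic programme (chromosome 6, 128398004 to 128398063), read -2.66, -2.71 and -3.01 in wild-type lungs and -3.07, -2.96 and -2.64 in the knockout. Its difference was 0.02 (SE 0.13), and as with Mki67 its lungs were ordered by scan day.

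Whether the genotypes differed more on 1 day than on the other was tested with an interaction term. In limma 0 of 31 genes passed at an adjusted threshold, where 0.0% of all genes passed, and the smallest unadjusted p among the 31 was 0.105, for Ube2c. This fit left 2 residual degrees of freedom.

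**Figure D3:**
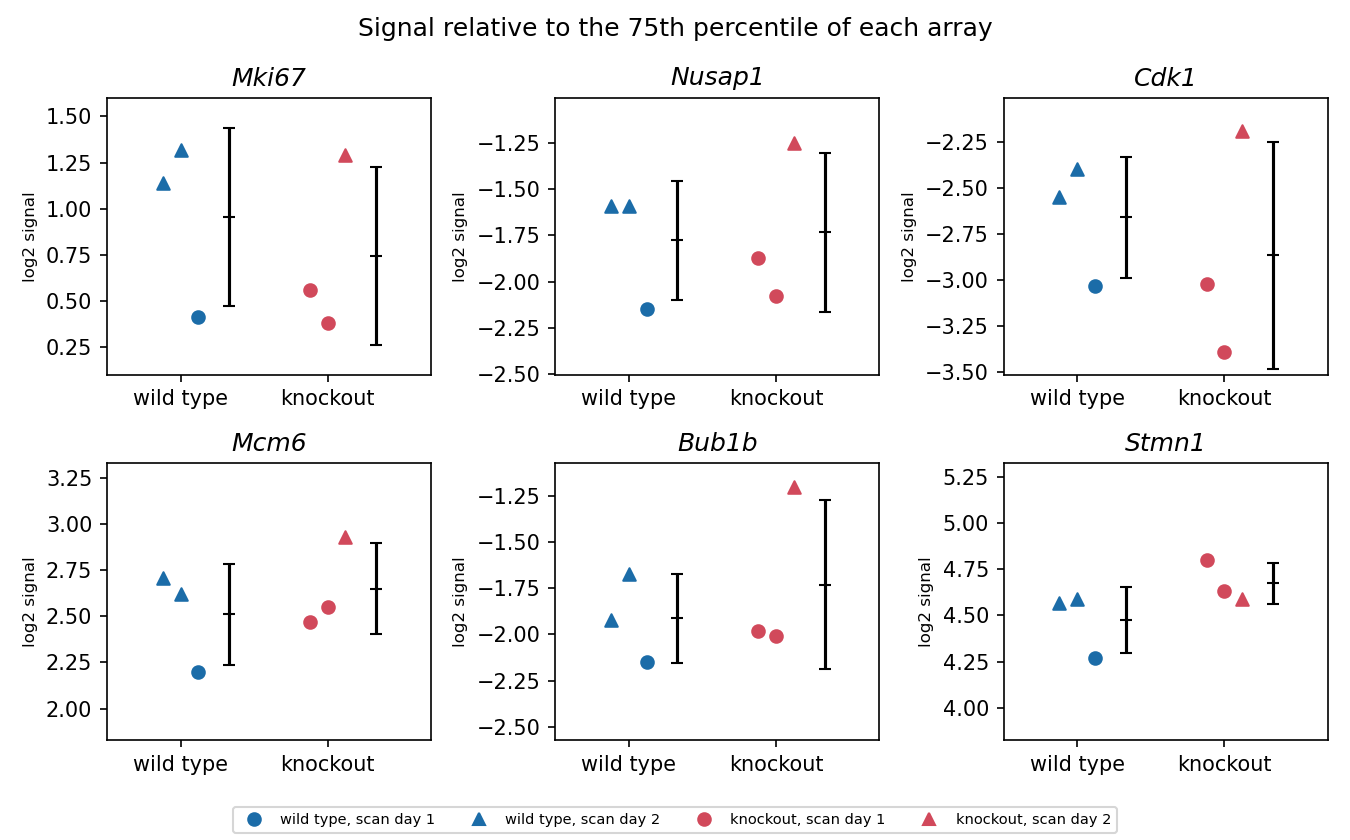
Log2 signal of 6 genes after subtraction of the 75th percentile of each array, by genotype. Circles are lungs of scan day 1, triangles of day 2, and black bars the mean and SD of 3 lungs; all panels span the same range of the y axis. For Mki67 the 3 triangles lie between 1.14 and 1.32 and the 3 circles between 0.38 and 0.56, in both genotypes.

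Part of the genes differed between the scan days. With genotype in the model, Mki67 was 0.82 higher on day 2 (SE 0.14, adjusted p = 0.0256 in limma) and Nusap1 0.65 higher (SE 0.14, adjusted p = 0.0495). These 2 of the 31 passed the adjusted threshold, beside 2.26% of all genes higher on day 2 by this rule, and 0 of 31 were lower, beside 8.74%. At an unadjusted p under 0.05, 12 of the 31 (38.7%) were higher on day 2, where 12.2% of all genes were, and 0 were lower, where 15.5% of all genes were. The calls of Mki67 and Nusap1 rested on each lung. Leaving out a lung in turn gave 0 calls among the 31, other than without knockout 11, which gave 1 (Mki67). With the lung left out, the difference stayed between 0.78 and 0.86 for Mki67 and between 0.56 and 0.73 for Nusap1.

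Other ways of scaling the arrays raised this count. Quantile normalization called 10 of the 31, median scaling 11, normexp followed by quantile 11 and the authors' values 11, each higher on day 2. These scalings also moved the median of all genes, from 0.04 as scaled here to 0.13, 0.34, 0.10 and 0.10. Over all genes 457 were called higher and 1768 lower on day 2 as scaled here. The split was 1204 and 1638 with quantile normalization, 2174 and 1484 with median scaling, 1287 and 1686 with normexp and 1314 and 1713 with the authors' values, so its direction turned under median scaling. The median of the 31 genes, 0.20 beside 0.04 for all genes, was 0.31 beside 0.13 with quantile normalization and 0.50 beside 0.34 with median scaling.

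Mitotic genes were 10 of the 12 genes higher on day 2 at an unadjusted p under 0.05, and 22 of the 31 measured. Their median difference was 0.31 over 22 genes, against 0.12 over the 8 S-phase genes, and 10 of 22 against 2 of 8 reached an unadjusted p under 0.05 (the difference between the sets was not tested). The mitotic genes were Mki67, Nusap1, Cdk1 (0.79, SE 0.19), Bub1 (0.62, SE 0.16), Kif20a (0.62, SE 0.16), Bub1b (0.58, SE 0.17), Ccnb1 (0.48), Pbk (0.49), Prc1 (0.47) and Foxm1 (0.35). The S-phase genes were Rrm2 (0.63, SE 0.22) and Mcm6 (0.45, SE 0.13). Cdk1 had levels of -2.55, -2.40 and -2.19 on day 2 and of -3.03, -3.02 and -3.39 on day 1. Among the other cell cycle genes described below, the medians for mitosis (0.38) and replication (0.37) were alike.

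Not every mitotic gene was higher on day 2. Top2a (-0.14), Cdc20 (-0.11), Aurkb (-0.25), Ccna2 (-0.07) and Cenpa (-0.10) had negative values on day 2, none of them at an unadjusted p under 0.05. In S phase Mcm3 gave -0.23 and Mcm2 -0.10. All 7 turned positive under median scaling, where 31 of 31 genes were higher, so none of them has a settled direction. A second Mcm3 probe gave 0.39. Second probes agreed in sign for Mki67 (0.47), Kif20a (0.61), Ccnb1 (0.17 and 0.54) and Tyms (0.17 and 0.04), and not for Stmn1 (0.10 and -0.73).

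On day 2 all 3 lungs were above all 3 lungs of day 1 for 13 of the 31 genes (41.9%), the 12 named and Kif11, beside 20.0% of all genes. The reverse held for 1 gene, Mcm3, beside 19.5% of all genes. After each gene was centred on its own mean, the median of the 22 mitotic genes was 0.20 in knockout 12, 0.16 in wild type 12 and 0.02 in wild type 11 on day 2. On day 1 it was -0.09 in knockout 1, -0.18 in wild type 13 and -0.25 in knockout 11. The S-phase genes did not fall into the same order: knockout 1 had the highest median, 0.16, followed by knockout 12 at 0.13, and knockout 11 the lowest, -0.17. Of the 31 genes 13 were highest in knockout 12, and 13 were lowest in wild type 13 and 10 in knockout 11.

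**Figure D4:**
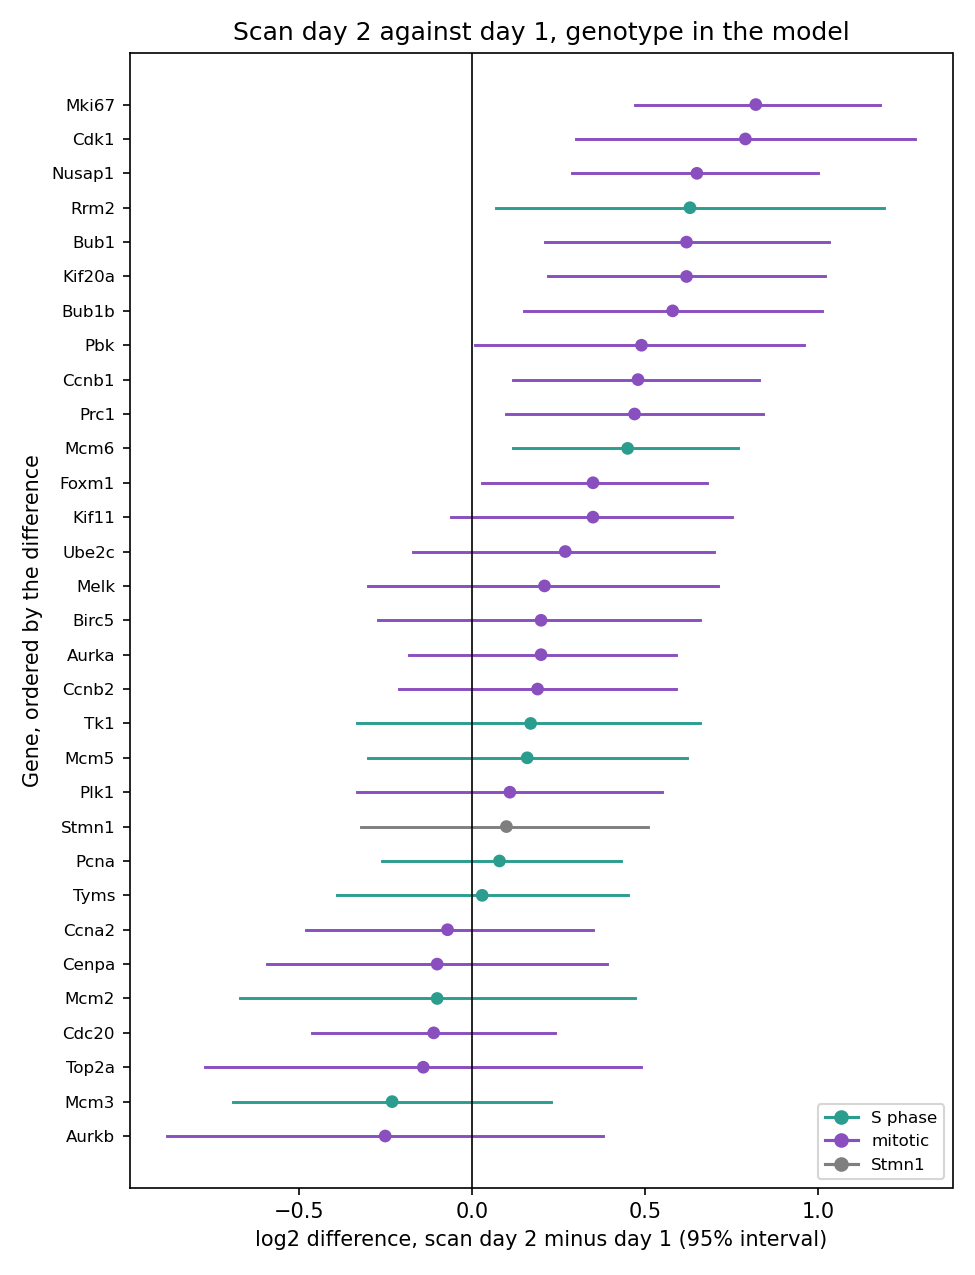
Points are log2 differences, scan day 2 minus day 1, of the 31 measured genes with genotype in the model; lines are 95% intervals from limma, coloured by role. The 12 intervals that lie above 0 belong to 10 mitotic genes and 2 S-phase genes, and 0 lie below 0.

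Markers of other cell types were set beside scan day, and 1 of them passed the adjusted threshold. Of 6 macrophage markers 4 were measured and all 4 were higher on day 2, beside 54.2% of all genes. Marco, a scavenger receptor of alveolar macrophages, differed by 1.72 (adjusted p = 0.0120 in limma), and Chil3 by 0.71 and Adgre1 by 0.73, without passing. The summed signal of that list, in units of the 75th percentile, was 58.7 to 90.8 on day 1 and 98.9 to 136.0 on day 2. Most of that sum came from Chil3, the brightest of the 4 (mean signal 144000, against 12600 for Marco). Of 5 measured erythroid markers 5 were higher on day 2, 2 of them at an unadjusted p under 0.05, where 12.2% of all genes were higher. Their sums were 15.9 to 18.8 on day 1 and 13.6 to 26.8 on day 2, mostly from Alas2 (difference 0.23). Of 5 B cell markers 2 were lower at an unadjusted p under 0.05, Cd79a (-1.26) and Ms4a1 (-0.72), and 2 had positive values, Pou2af1 (0.37) and Cd79b (0.00075). Cd79a was dim (mean signal 54.3) and well above background on 5 of 6 arrays, so its value lies near the floor. The B cell list had a median of -0.10 and sums of 6.12 to 9.59 on day 1 and 5.89 to 7.21 on day 2. Of the 5 thymocyte markers, Rag1, Rag2 and Ptcra did not count as measured and Dntt and Cd8b1 did, at 0.34 and 0.67 on day 2. The probe named Cd8b1 is placed on mm7 chromosome 5 and that of Cd8a on chromosome 6. Whether it reads Cd8b1 was not assessed. It gave most of the summed signal of the 2 (mean signal 2270, against 226 for Dntt). That sum was 0.988 to 1.11 on day 1 and 1.57 to 1.84 on day 2. Fibroblast sums were lower on day 2, at 59.9 to 64.0 against 76.2 to 86.8. Col1a2 (-0.58) and Dcn (-0.64) were lower and Pdgfra (0.56) higher at an unadjusted p under 0.05, and Col1a1 gave 0.27. Of 5 endothelial markers 1 was higher on day 2, and Kdr (-0.95) was lower at that threshold. Of 4 alveolar type 1 markers 3 were higher (median 0.31), and of 5 alveolar type 2 markers 4 (median 0.19). Pdpn (0.52) of the former and Lamp3 (0.46) of the latter reached that threshold. Values were also higher for 2 of 3 club, 2 of 5 ciliated, 1 of 6 T cell and 4 of 7 neutrophil precursor markers. Of the last, Elane (-0.67) was lower at that threshold. The part of these cells in the result was not tested.

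With genotype, the 7 markers of neutrophil precursors all had negative values in the knockout, and 0 passed the adjusted threshold. Elane (-0.82), Ltf (-0.77) and Prtn3 (-0.69) reached an unadjusted p under 0.05, where 1.31% of all genes were lower. Elane was dim (mean signal 32.2) and well above background on 5 of 6 arrays, so its value lies near the floor. The summed signal of the 7 was 6.95 to 12.8 in the wild type and 4.79 to 7.17 in the knockout. Mpo, Elane, Prtn3 and Ltf were negative on both scan days. Ngp, Camp and Ctsg gave 0.47, 0.10 and 0.06 within day 1. Within day 2, where knockout 12 was the only knockout lung, they gave -1.49, -1.46 and -1.22. The 4 measured macrophage markers had positive values in the knockout (median 0.34), of which Chil3 (0.46) reached an unadjusted p under 0.05. Their sum, mostly from Chil3, was 58.7 to 113.0 in the wild type and 77.4 to 136.0 in the knockout. The 5 B cell markers also had positive values (median 0.27), of which Pou2af1 (0.58) reached an unadjusted p under 0.05, with sums of 5.89 to 6.22 in the wild type and 6.17 to 9.59 in the knockout. Of 6 T cell markers 4 had positive and 2 negative values (median 0.04), and Cd3g (0.50) reached an unadjusted p under 0.05. The 3 club cell markers had positive values (median 0.37), as did 4 of 5 alveolar type 2 markers (median 0.11), with 0 at that threshold. The part of these cell types in the values of the cell cycle genes was not tested.

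Beyond the 32 genes, 93 other genes of the cell cycle were followed in 6 classes, and 90 were measured. In limma 0 of 90 reached an unadjusted p under 0.05 between genotypes and 0 passed after adjustment. Replication genes were higher in the knockout in 15 of 17 (median 0.15) and genes of mitosis in 23 of 29 (median 0.09). Checkpoint and p53 genes were higher in 4 of 12 (median -0.03) and G1 cyclins and kinases in 3 of 8 (median -0.07), beside 53.1% of all genes higher. The CDK inhibitors were higher in 5 of 6 and the E2F, Rb and MuvB genes in 10 of 18. These counts depended on the model. With scan day in it 60 of the 90 were higher (median 0.09). Without it 41 of the 90 were higher (median -0.02), beside 52.2% of all genes.

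The smallest p of these 90 belonged to Gmnn, geminin, which blocks a repeat firing of replication origins. It read 1.36, 1.58 and 1.30 in wild-type lungs and 1.60, 1.46 and 2.01 in the knockout, with knockout 12 above the rest. The difference was 0.39 (SE 0.16, unadjusted p = 0.0550 and adjusted p = 1.0 in limma). Next were Uhrf1, which copies DNA methylation at the fork (0.36, SE 0.17), Rbl2, the pocket protein p130 of resting cells (0.35, SE 0.18), Orc6 of the origin recognition complex (0.24), Ncapg of condensin (0.25) and Cdca5, or sororin (0.24). E2f8, a repressor of the E2F family, gave -0.33 (SE 0.19) and was lower in the knockout on every array, from -4.82 to -4.45 in the wild type and from -5.32 to -4.84 in the knockout. It was the only 1 of the 90 genes (1.11%) with that pattern, beside 1.6% of all genes.

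Brakes and entry genes of the cycle differed no more. Cdkn1b, the inhibitor p27, read 0.74, 0.66 and 1.01 in wild-type lungs and 1.09, 1.27 and 1.04 in the knockout. The knockout lay above the wild type on every array, as for no other of the 90 genes (1.11%) and for 2.4% of all genes. The difference was 0.26 (SE 0.14, unadjusted p = 0.123 in limma). Cdkn1a, the p53 target p21, read 0.86, 0.84 and 0.88 in wild-type lungs and 0.37, 2.05 and 0.92 in the knockout. Knockout 11 stood far above the other 5 lungs, knockout 1 was the lowest, and the difference was 0.20 (95% interval -0.99 to 1.39). Knockout 11, a lung of scan day 1 and alone on its slide, also had the lowest median of the mitotic and of the S-phase genes. A link between these values was not tested. Ccnd1, cyclin D1, gave -0.06 (SE 0.14), E2f1 0.18 (SE 0.15) and Rb1 -0.01 (SE 0.16).

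**Figure D5:**
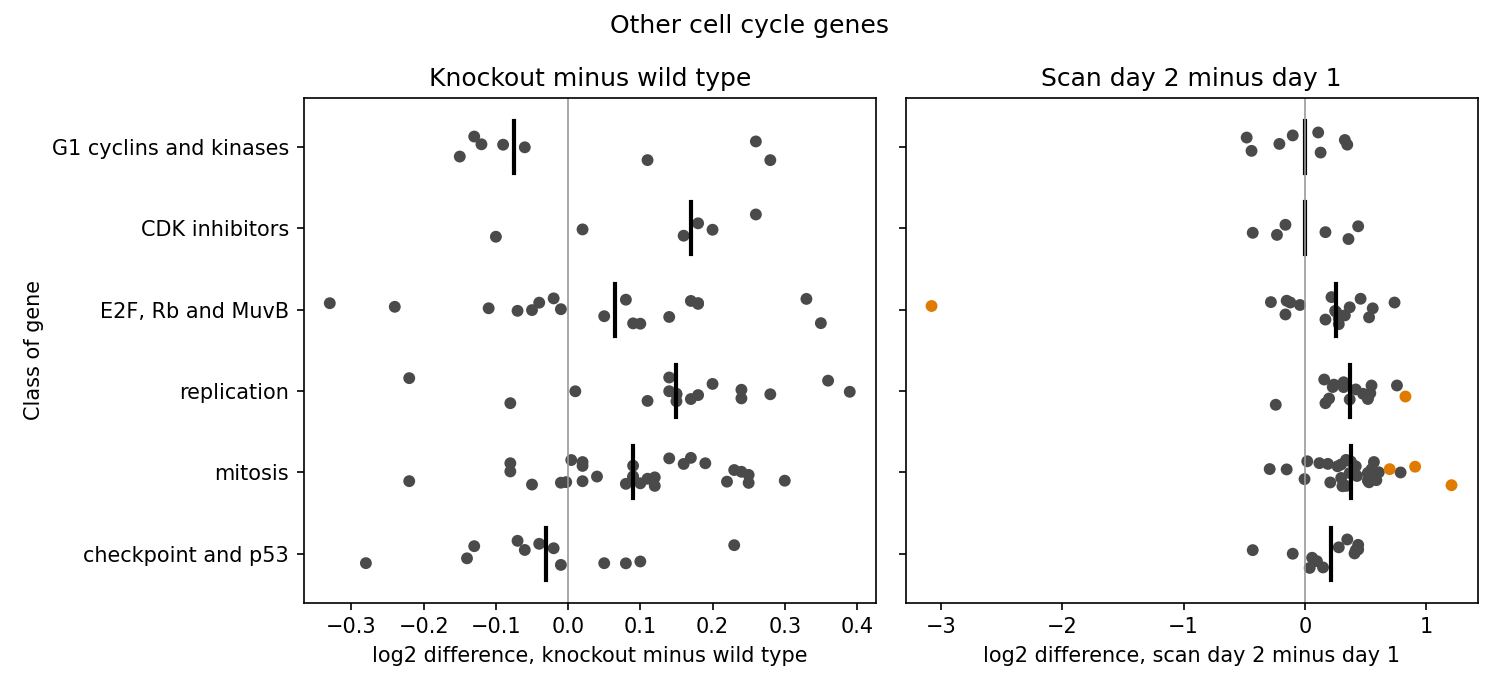
Each point is 1 of 90 measured cell cycle genes outside the 32, by class; the x axes are log2 differences between genotypes (left) and scan days (right), on different scales. Black bars are class medians and orange points passed the adjusted threshold: 0 on the left and 5 on the right.

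Scan day separated part of these genes as well. At an unadjusted p under 0.05, 28 of 90 (31.1%) were higher on day 2 and 3 lower, beside 12.2% and 15.5% of all genes. After adjustment 4 were higher and 1 lower. Anln, or anillin (1.21, SE 0.19, adjusted p = 0.0195 in limma), and Ect2 (0.91, SE 0.14, adjusted p = 0.0193) build the contractile ring that splits the cell. Spc25 of the kinetochore was 0.70 higher and Uhrf1 0.83 higher. Tfdp2, a partner of E2F factors, was lower, at -2.21, -2.29 and -2.67 on day 2 and 0.48, 0.96 and 0.57 on day 1. The median was 0.38 for genes of mitosis and 0.37 for replication, and 0.01 for G1 cyclins and kinases, which act before S phase.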

How the data were processed

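The authors deposited, per the file headers, Agilent Feature Extraction 9.5.1.1 output (the submitters' processing notes name 9.1), with a background-subtracted, detrended intensity per spot and flags for spots above background. They also deposited a table of log2 values. How it was made is not stated in the sources, and its log base was read from the values. Outlier spots were dropped and replicate spots averaged, and log2 intensity minus the 75th percentile of each array was used. RefSeq named 32688 of 41174 probes, and 8456 kept the name in the file. Genotypes were compared in limma 3.58.1 (lmFit, eBayes; R 4.3.3) by two-sided tests, adjusted over 20237 genes by Benjamini-Hochberg at a threshold of 0.05, with scan day from the headers as a block. The fit was tested on simulated data. The design text calls the lungs of a group separate biological replicates. Probe positions are mm7.

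The members, gene lists and tests were chosen with earlier results of these data known. All 32 genes are accounted for. Array values are given for 8 set genes, the 8 with the smallest genotype p and the 4 with the smallest scan-day p. From the other cell cycle genes, the 8 with the smallest p plus Cdkn1a, Ccnd1, E2f1 and Rb1 were described, and those called across days. Marker lists other than macrophages (alveolar type 1 and 2, club, ciliated, endothelial, fibroblast, B, T, thymocyte, neutrophil precursor, erythroid) gave 0 genes past the adjusted threshold in either comparison. Atr, Siglec5, Ear2 and Ahsp were not matched by name. One further marker is not reported here. Alternatives covered scaling, background correction, the authors' values, filters, probe choice, variance models, blocks and each lung left out.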

Additional observations from a re-analysis of the deposited data

How the results depend on the processing

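Between genotypes, 0 of the cell cycle genes were called under every alternative run. Over all genes 0 were called, with 2 when slide was a random block, 1 with normexp and 1 with the authors' values. The interaction called 0 genes in each fit. The labels share the numbers 11 and 12 between genotypes but do not say that a number marks a litter or day. Deviations of the numbered lungs from their genotype means correlated at -0.246 (number 11) and 0.417 (number 12). Both lungs numbered 12 were scanned on day 2, whereas wild type 11 was of day 2 and knockout 11 of day 1. Scan day was left in these deviations, so number and day cannot be told apart in them. With the replicate block in place of scan day, the genotype median was -0.06 for all members and -0.10 for mitotic ones. Of the 31 members 14 then changed sign. The genes described one by one that turned, members or not, were Mki67 (-0.40), Ccnb1 (-0.12), Cdk1 (-0.32), Foxm1 (-0.12), Mcm2 (0.02), Rrm2 (-0.34), Nusap1 (-0.08), Kif20a (-0.16), Prc1 (-0.12), Uhrf1 (-0.20), Ncapg (-0.12) and E2f1 (-0.04). No call changed.

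Other sign changes between genotypes were among genes past no threshold, and values are given for the genes described one by one, members or not. Of the 31 members 7 turned without scan day, 8 within day 1, 8 within day 2, 3 with slide as a random block, 2 to 8 with a lung left out and 0 to 3 under the scalings, filters and variance models. Those without scan day were Mki67 (-0.21), Ccnb1 (-0.02), Cdk1 (-0.21) and Foxm1 (-0.10). With slide as a random block they were Foxm1 (-0.03), Mcm2 (0.06) and Cdkn1a (-0.01), and with array weights Mcm2 (0.05) and Cdkn1a (-0.02). Within day 1 they were Top2a (-0.15), Cdk1 (-0.18), Foxm1 (-0.003) and Rb1 (0.03), and within day 2 Mcm2 (0.24) and Rrm2 (-0.01). Median scaling turned Mcm2 (0.02) and Rb1 (0.04), the authors' values Rb1 (0.04) and the mean of probes Cdca5 (-0.05). With each lung left out, Top2a ranged from -0.15 to 0.29, Cdk1 from -0.18 to 0.28, Rb1 from -0.09 to 0.05, Mcm2 from -0.32 to 0.24, Rrm2 from -0.01 to 0.48, Foxm1 from -0.003 to 0.05 and Cdkn1a from -0.18 to 0.54.

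Between scan days, 2225 genes were called. The count was 3658 with median scaling, 1039 with array weights and 623 to 2463 with each lung left out. Members called were 2. They numbered 10 with quantile normalization, 11 with median scaling, 11 with normexp, 11 with the authors' values, 1 with no filter on dim probes (Mki67), 0 with array weights and 0 to 1 with each lung left out. The trended robust variance called 3, Mki67, Mcm6 and Kif20a. Quantile normalization turned Top2a (0.15), Pcna (-0.02) and Stmn1 (-0.0044), and median scaling turned Top2a (0.16), Mcm2 (0.20) and Cdc20 (0.19), among 6 and 7 members that turned. Of 7 members turned by normexp and 7 by the authors' values, normexp turned Top2a (0.06), Pcna (-0.01) and Stmn1 (-0.02) and the authors' values Top2a (0.06), Mcm2 (0.01) and Stmn1 (-0.00051), and the mean of probes Stmn1 (-0.32). With each lung left out Top2a ranged from -0.36 to 0.09, Mcm2 from -0.39 to 0.18 and Stmn1 from -0.12 to 0.31. The cause of these changes was not tested.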
